A study of Mus musculus with 8 samples.

Results

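The genes described here are 10 genes of leukocytes, the white cells of blood and tissues: Ptprc, Cd52, Lck, Cxcr6, Cd163l1, Gpr183, Emr1, Csf1r, Cd68 and Cybb. They were taken by symbol as markers of leukocytes and macrophages, with earlier results of these data known, and each symbol matched 1 of the 29880 genes of the table. The study asked what loss of H3.3B, a replacement variant of histone H3 encoded by H3f3b, does in male germ cells. RNA was sequenced from a meiotic fraction and from a post-meiotic fraction, mostly round spermatids, which were obtained from dissociated seminiferous tubules by sedimentation through an albumin gradient. There were 4 groups of 2 libraries: WT meiotic, WT post-meiotic, KO meiotic and KO post-meiotic. In the labels WT mice are H3.3BWT/WT :Actin Cre WT and KO mice are H3.3BKO/KO :Actin Cre WT, so that the Cre entry, which the labels do not spell out, is the same in all groups. All mice were C57BL/6 males of 3 to 6 months, and the H3f3b allele had been targeted in 129S2/SvPas embryonic stem cells.

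Some features limit the groups as models of germ cells. The genotype is that of the whole mouse, with no cell type named for the deletion, and no step of the preparation as described was aimed at leukocytes, although sedimentation parts cells by size and can so spread cells other than germ cells unevenly over the fractions. RNA of a library came from the tubules of 1 mouse, and whether libraries of the same number share a mouse is not given. The p-values thus rest on the spread between these libraries. That spread was estimated within groups, over all 4 groups together and with information shared over genes. In bulk RNA, fewer cells of a type and less RNA per cell cannot be told apart.

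The testis is patrolled by leukocytes, most of them macrophages that lie between the tubules and on their outer wall, with smaller numbers of lymphocytes, while the inner part of the tubule, where meiosis takes place, is closed off by the junctions of Sertoli cells. Ptprc is found on nearly all nucleated blood cells, Lck and Cxcr6 belong to T cells and their relatives, and Emr1, Csf1r, Cd68 and Cybb belong to macrophages and other phagocytes. Transcription in macrophages and B cells depends on PU.1, a factor of the Ets family encoded by Spi1, whose sites share the core GAGGAA.

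RefSeq promoter windows on GRCm38.p6, from 250 bases before to 50 bases after the start, were at hand for 7 of the 10 genes, with 9 starts. The core GAGGAA, searched on both strands and so also read as TTCCTC, was present in 4 of the 9 windows, against 28.3% of 32851 windows of all genes. A count of 4 among 9 windows does not set these genes apart from other genes. It lay at -158 in 1 of the windows of Ptprc, at -174 in 1 of those of Lck, at -225 and 29 in that of Cd68 and at 9 in that of Cybb. The windows of Cxcr6, Cd163l1 and Gpr183 held no match. A match is a description of letters, not of a bound site. The stretches are shown because these genes move together across the fractions, except Lck, and the core is in capitals. Both starts of Lck are shown because Lck stood apart from the rest. They lie 15269 bases apart, and the second window shown for Lck holds the match.
Ptprc, chr1:138175401-138175520, minus strand: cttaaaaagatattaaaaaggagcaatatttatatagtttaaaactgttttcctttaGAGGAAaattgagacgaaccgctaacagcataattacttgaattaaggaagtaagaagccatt
Lck, chr4:129558373-129558492, minus strand: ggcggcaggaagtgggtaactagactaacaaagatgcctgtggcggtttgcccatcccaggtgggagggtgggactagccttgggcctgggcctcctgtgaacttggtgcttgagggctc
Lck, chr4:129573753-129573872, minus strand: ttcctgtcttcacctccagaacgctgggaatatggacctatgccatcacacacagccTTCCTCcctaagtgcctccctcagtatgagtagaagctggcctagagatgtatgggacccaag
Cd68, chr11:69666301-69666420, minus strand: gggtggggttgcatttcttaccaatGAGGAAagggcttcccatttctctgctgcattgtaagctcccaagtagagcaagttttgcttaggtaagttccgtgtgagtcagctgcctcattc
Cybb, chrX:9469298-9469327, minus strand: tgctgttttcatTTCCTCatcagaagaaga

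Libraries held 57853283 to 92836630 reads counted in genes, the largest being KO meiotic library 2. H3f3b itself had 36885 and 32641 reads (WT) against 621 and 1107 (KO) in meiotic libraries, and 14727 and 12130 (WT) against 407 and 442 (KO) in post-meiotic ones, so that all 8 libraries carried the genotype of their label. The fractions also carried the markers of their labels. From meiotic to post-meiotic cells 7 of 8 spermatocyte genes passed the test given below as lower and 8 of 8 spermatid genes as higher, in both genotypes. Of all tested genes, 32.4% (WT) and 31.5% (KO) passed as lower and 29.6% and 29.5% as higher. The other spermatocyte gene, Dmc1, passed as higher, with log2 changes of 0.57 in WT and 0.25 in KO. Between the genotypes, 5 spermatocyte genes passed as higher and 2 as lower in KO meiotic cells, against 8.98% and 8.55% of all tested genes. In KO post-meiotic cells 5 passed as higher and 0 as lower, against 12.4% and 11.6%. Hist1h1t, a linker histone of the testis, was among those higher there (log2 0.87 ± 0.06, adjusted p = 8.24e-09, edgeR). The higher spermatocyte genes move with the KO effect on the leukocyte genes, and their part in it was not tested. Spermatid genes were already at 7625 to 10734 CPM (counts scaled to the effective library size) in sum in meiotic libraries, against 27332 to 30669 in post-meiotic ones. Changes were tested with edgeR over 20412 genes, with p-values adjusted over all of them. A gene passed the test at an adjusted p under 0.01, and it was called when its log2 change was also beyond 1.

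All 10 genes were weakly expressed. Their CPM added up to 7.1 to 7.55 in WT meiotic, 14.5 to 17.0 in KO meiotic, 23.2 to 25.5 in WT post-meiotic and 41.1 to 49.4 in KO post-meiotic libraries, with no overlap between groups. The sum was thus lowest in WT meiotic and highest in KO post-meiotic cells. Per length of exon (RPKM), Emr1 had the highest mean in WT meiotic, WT post-meiotic and KO post-meiotic cells, with 0.748 ± 0.037, 1.94 ± 0.07 and 3.58 ± 0.42 (SD, n = 2). In WT post-meiotic cells Csf1r, with 1.87 ± 0.23, did not differ from Emr1 beyond the spread and was above it in library 1. In KO meiotic cells Lck with 1.80 ± 0.03 was above Emr1 with 1.56 ± 0.07. In KO post-meiotic cells Csf1r followed with 2.56 ± 0.24 RPKM, then Lck, Cd52 and Cd68 with 1.67 ± 0.18, 1.58 ± 0.55 and 1.36 ± 0.20, which do not differ beyond the spread of Cd52. Cxcr6, Cd163l1 and Gpr183 had no more than 3 reads in any meiotic library. They passed the filter on low counts only through post-meiotic libraries, Cd163l1 only through those of KO, so that their differences follow in part from the filter, and counts are given below also over the 7 genes with at least 50 reads on average over the 8 libraries, a limit chosen after the data were seen.

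**Figure D1:**
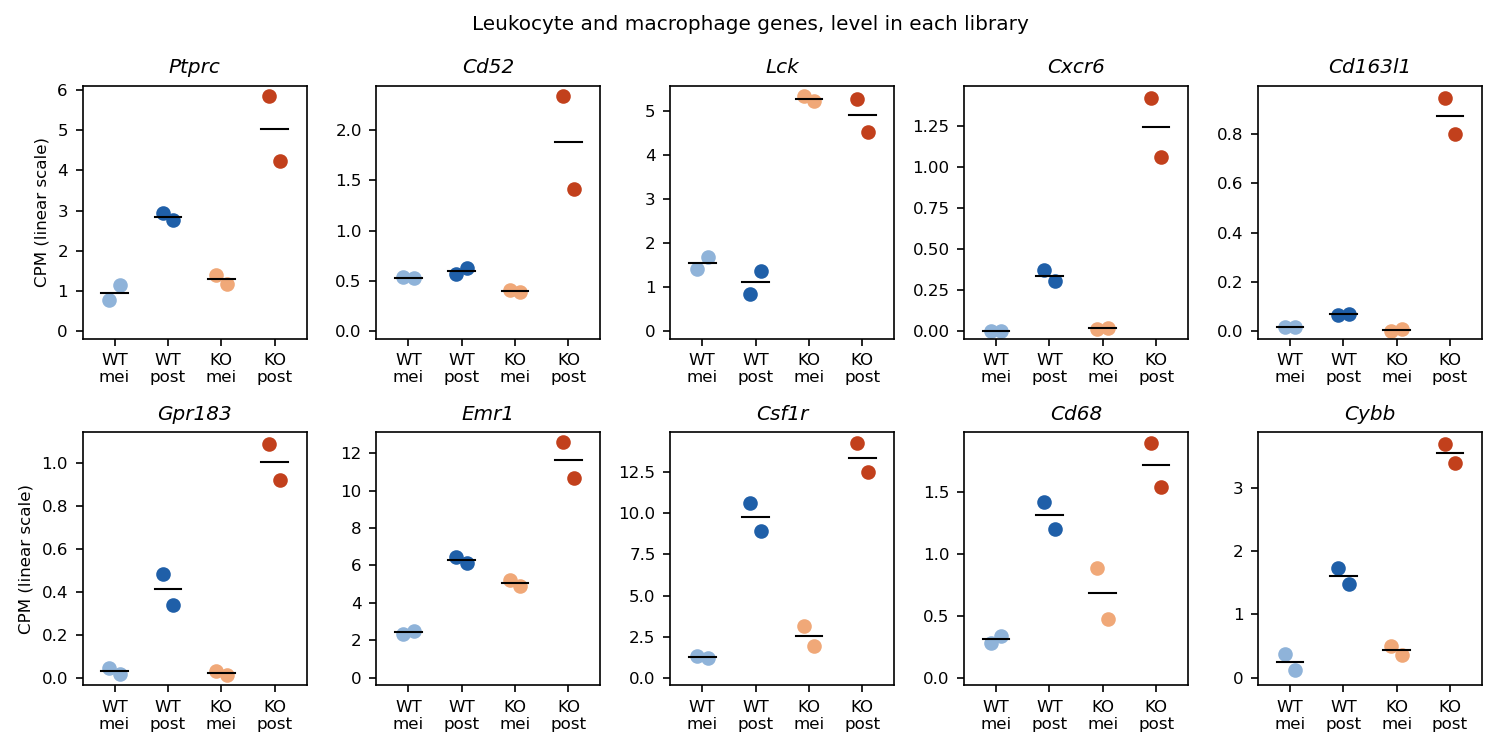
Level of each gene in each of the 8 libraries, in CPM on a linear scale from 0, with a panel per gene, points for libraries and a line at the mean of the 2 libraries of a group. KO post-meiotic libraries are the highest in 9 of the panels, and Lck stands at 4.52 to 5.34 CPM in the 4 KO libraries and at 0.853 to 1.68 CPM in the 4 WT libraries.

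From meiotic to post-meiotic WT cells, 7 of the 10 genes were called higher and none lower, against 11.0% of tested genes called higher and 25.4% called in either direction. The exceptions were Lck, Cd52 and Cd163l1. In KO cells 9 of 10 were called higher, all but Lck, against 10.3% of all tested genes called higher and 22.1% in either direction. Over the 7 genes with more reads, 5 were called higher in WT and 6 in KO. The median log2 change over the 10 genes was 2.02 in WT and 2.35 in KO, and over the 7 genes 1.59 and 1.99, against 0.01 and 0.05 over all tested genes. Between KO and WT meiotic cells 2 of 10 were called higher, Lck and Emr1, against 1.32% of tested genes called higher and 2.18% in either direction. Between KO and WT post-meiotic cells 6 of 10 were called higher, against 2.19% called higher and 3.05% in either direction, and 8 of 10 passed the test without the fold limit, against 12.4%. Over the 7 genes with more reads, 3 were called, Cd52, Lck and Cybb, and 5 passed. The medians of the KO effect were 0.86 in meiotic and 1.21 in post-meiotic cells over the 10 genes and 0.95 and 0.89 over the 7, against 0.00 and 0.04. No gene was called lower in the 4 comparisons, by edgeR or by DESeq2, and the only lower value with an unadjusted p under 0.05 was that of Lck with stage in WT. The comparison of the genotypes at a stage and that of the stages in a genotype share libraries.

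**Figure D2:**
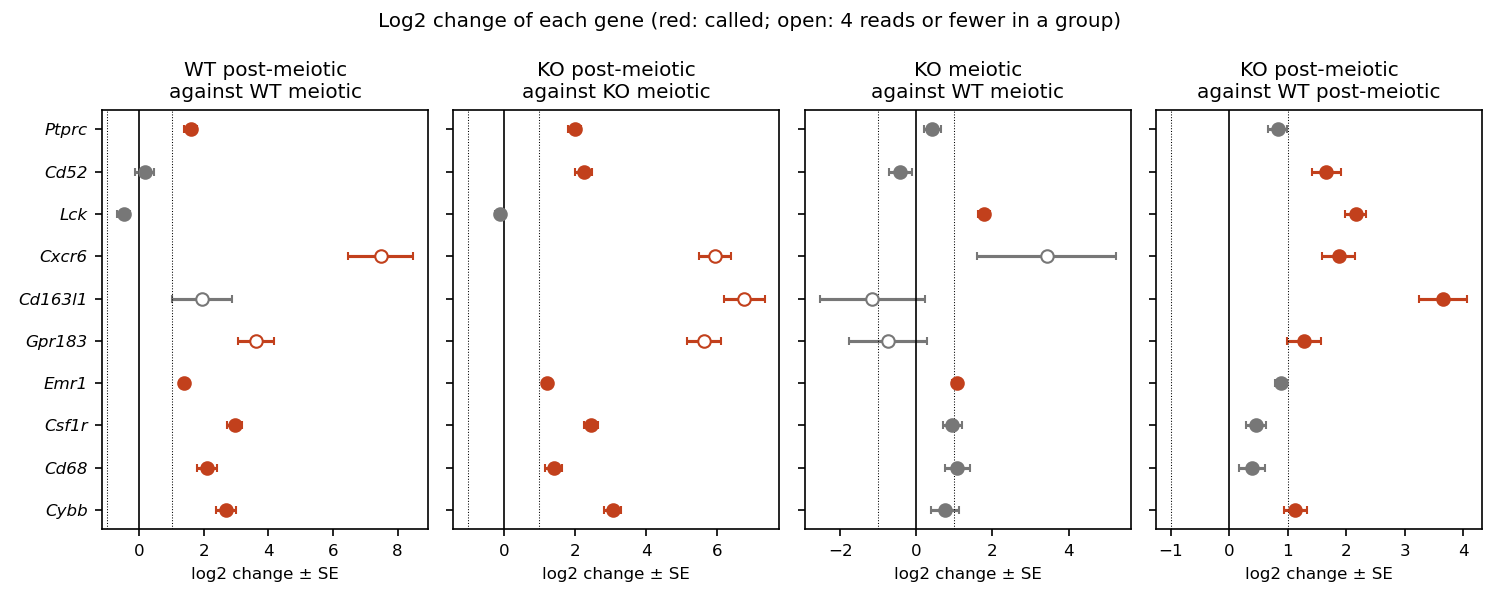
Log2 change of each gene, with its standard error (SE), in the 4 comparisons between groups, with red for called genes, grey for others, open symbols where a group held 4 reads or fewer and dotted lines at the fold limit. Lck is at -0.49 in WT and -0.11 in KO in the stage comparisons, with Cd52 nearer to 0 in WT at 0.16. Lck is among the called genes in both comparisons of KO with WT.

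Ptprc encodes the tyrosine phosphatase that marks leukocytes as a class and that, in T cells, keeps Lck in a state ready to signal. It had 50 and 67 reads in WT meiotic, 88 and 116 in KO meiotic, 182 and 154 in WT post-meiotic libraries, with 370 and 243 in those of KO post-meiotic cells. In CPM the groups did not overlap and stood in this order. Ptprc rose 3.00-fold from meiotic to post-meiotic cells in WT (log2 1.59 ± 0.21 SE, adjusted p = 1.19e-06) and 3.97-fold in KO (log2 1.99 ± 0.18, adjusted p = 6.69e-09). In post-meiotic cells it was 1.77-fold higher in KO (log2 0.83 ± 0.17, adjusted p = 0.000799), short of the fold limit. Without KO post-meiotic library 1 this difference was 0.55 on the log2 scale with an adjusted p of 0.0443, without WT post-meiotic library 2 it was 0.77 with 0.0138, and without KO post-meiotic library 2 it was 1.03, past the fold limit. The KO effect in meiotic cells, log2 0.42, did not pass (adjusted p = 0.169).

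Cd52, a short surface glycoprotein of lymphocytes and monocytes that is also made by the epithelium of the epididymis, was level in 3 of the groups. It had 35 and 31 reads in WT meiotic, 26 and 38 in KO meiotic, 35 and 35 in WT post-meiotic libraries, with 148 and 81 in those of KO post-meiotic cells. Only the KO post-meiotic libraries stood apart, at 2.34 and 1.41 CPM, against 0.386 to 0.627 CPM in the other 6. The KO effect in post-meiotic cells was 3.17-fold (log2 1.66 ± 0.25, adjusted p = 4.44e-05), and in meiotic cells it was -0.42 ± 0.31 on the log2 scale and did not pass (adjusted p = 0.326). The difference between these effects was 2.09 ± 0.40 on the log2 scale (adjusted p = 0.00394), and Cd52 was the only gene of the 10 called in this test, against 0.505% of tested genes. The call was lost, with adjusted p of 0.0133 to 0.0334, when WT meiotic library 1, WT post-meiotic library 1 or 2, KO meiotic library 2 or KO post-meiotic library 1 was left out, at differences of 1.64 to 2.15. Aim1l runs over Cd52 on the opposite strand and shares 172 exon bases with it. The strand setting of the read counting is not stated, and Aim1l, with 52 to 188 reads, had log2 KO effects of -0.55 and -0.58 in meiotic and post-meiotic cells, which did not pass, and fell with stage by 0.83 in WT (adjusted p = 0.000492) and 0.86 in KO (adjusted p = 0.000808). The part of Aim1l reads in the count of Cd52 was not tested.

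Lck encodes the Src family kinase that sits on the tails of CD4 and CD8 and starts the signal of the T cell receptor, and its pattern was unlike that of the other 9 genes. Its reads numbered 92 and 99 (WT meiotic), 53 and 76 (WT post-meiotic), 337 and 514 (KO meiotic) and 334 and 259 (KO post-meiotic). All 4 KO libraries were above all 4 WT libraries. Lck was 3.41-fold higher in KO meiotic cells (log2 1.77 ± 0.16, adjusted p = 1.26e-07) and 4.46-fold higher in KO post-meiotic cells (log2 2.16 ± 0.18, adjusted p = 3.77e-08). Both calls held with each library left out in turn. The difference between the stages in the KO effect, 0.39 ± 0.25 on the log2 scale, did not pass (adjusted p = 0.362). Lck showed no rise from meiotic to post-meiotic cells, with log2 changes of -0.49 ± 0.20 in WT (adjusted p = 0.0375) and -0.11 ± 0.14 in KO (adjusted p = 0.51). Without WT post-meiotic library 2 the change in WT was -0.86 and passed the test as lower (adjusted p = 0.0034), short of the fold limit. The 12 tested genes within 100000 bases of Lck had log2 KO effects of -0.39 to 0.30 in meiotic and -0.19 to 0.42 in post-meiotic cells.

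Partners of Lck at the T cell receptor lay mostly nearer to 0. Of 20 listed genes of the receptor complex and its signalling, 18 were tested, and edgeR called 0 of them in either comparison of KO with WT, with medians of 0.31 and 0.32 on the log2 scale. As 2.18% and 3.05% of all tested genes were called there, a count of 0 in a list of this size does not set it apart from other genes. At an unadjusted p under 0.05, 4 were higher and 2 lower in KO meiotic cells, and 5 higher and 1 lower in KO post-meiotic cells. DESeq2 called 1 gene, Ubash3a, in each comparison and gave 6 no adjusted p. In meiotic cells Cd247, the zeta chain of the receptor, passed the test as higher (log2 0.38 ± 0.11, adjusted p = 0.00952), and Lef1, a transcription factor of lymphocyte precursors, as lower (log2 -0.62 ± 0.06, adjusted p = 1.95e-07). In post-meiotic cells Cd3d, the delta chain, passed as higher (log2 0.48 ± 0.11, adjusted p = 0.00217), and Lef1 as lower (log2 -0.31 ± 0.06, adjusted p = 0.000661).

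A few more genes of the list are named after their values were seen. Ubash3a, a negative regulator of the receptor signal, had 27 and 31 reads (WT meiotic), 33 and 40 (WT post-meiotic), 77 and 214 (KO meiotic) and 85 and 153 (KO post-meiotic). As with Lck, all 4 KO libraries were above all 4 WT libraries, but the KO libraries of Ubash3a were unequal. Its log2 KO effects were 1.89 ± 0.45 and 1.68 ± 0.44 in edgeR, which did not pass (adjusted p = 0.0163 and 0.0189), and 1.84 and 1.63 in DESeq2, which called both (adjusted p = 4.56e-05 and 0.0002). Cd3e, the epsilon chain of the receptor, had 4 to 17 reads in a library, Cd3g, the gamma chain, 0 to 32 and Lat, the adaptor downstream of the receptor, 8 to 29.

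**Figure D3:**
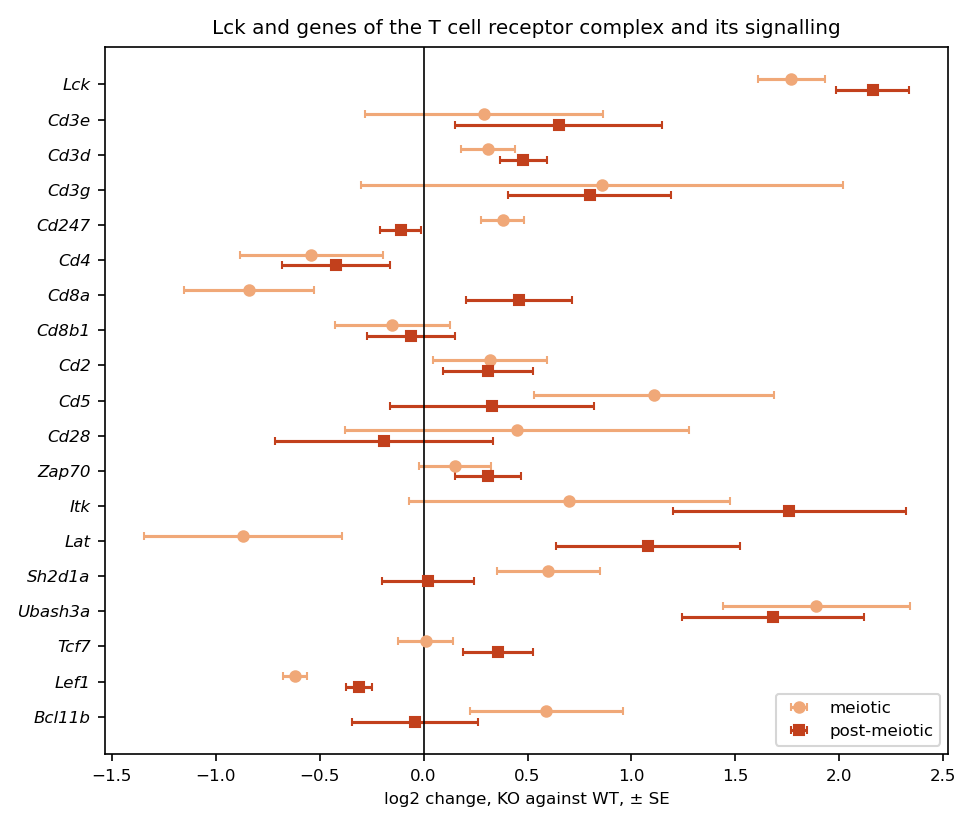
Log2 change between KO and WT, with its SE, of Lck and of the 18 tested genes of the T cell receptor complex and its signalling, with circles for meiotic and squares for post-meiotic cells. Lck is at 1.77 and 2.16, while the medians of the other genes are 0.31 and 0.32.

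With stage, members of the same list went both ways. In WT 9 of its 18 tested genes passed the test as higher in post-meiotic cells and 2 as lower, and in KO 10 passed as higher and 2 as lower, against 29.6% and 29.5% of all tested genes passing as higher and 32.4% and 31.5% as lower. Cd3d rose by 1.21 ± 0.13 in WT and 1.39 ± 0.12 in KO on the log2 scale, while Tcf7, a further transcription factor of T cells, fell by 1.36 ± 0.15 and 1.01 ± 0.14. Lef1, with 1298 to 4461 reads in a library, fell by 1.21 ± 0.06 and 0.90 ± 0.06. Cd3g, counted as higher in both genotypes, passed the filter on low counts only through post-meiotic libraries, so that its rises are a description.

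Cxcr6, Cd163l1 and Gpr183 were found almost only in post-meiotic libraries. Cxcr6, the receptor for the chemokine Cxcl16 on activated T cells and natural killer T cells, had 0 and 0 reads in WT meiotic, 1 and 2 in KO meiotic, 23 and 17 in WT post-meiotic libraries, with 90 and 61 in those of KO post-meiotic cells. It was at least 14-fold higher in WT post-meiotic than in WT meiotic cells, with the 0 reads of the meiotic group set to a floor of 3 reads over the group. In KO the ratio of reads per effective library was 67.4 (95% counting interval 22.6 to 331). Both rises were called (adjusted p = 1.86e-06 in WT and 6.42e-10 in KO, edgeR). As Cxcr6 was tested only because of its reads in post-meiotic libraries, these rises are a description. In post-meiotic cells Cxcr6 was 3.67-fold higher in KO (log2 1.87 ± 0.28, adjusted p = 6.02e-05). Counting intervals and floors cover counting error only.

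Cd163l1 encodes a receptor of the scavenger cysteine-rich family that is best known in the mouse from gamma delta T cells. It had 1 and 1 reads in WT meiotic, 0 and 1 in KO meiotic, 4 and 4 in WT post-meiotic libraries, with 60 and 46 in those of KO post-meiotic cells. Only the KO post-meiotic libraries were clear of the low counts of the rest. In post-meiotic cells it was 12.6-fold higher in KO (log2 3.66 ± 0.41, adjusted p = 2.09e-06), and the ratio of reads was 12.9 (95% counting interval 6.34 to 30.8). As Cd163l1 was tested only because of its reads in KO post-meiotic libraries, this value and the rise within KO are a description. Within KO the ratio of post-meiotic to meiotic reads was 142 (24.9 to 5660), and within WT it was 4.2 (0.839 to 40.6) and not called (adjusted p = 0.0694). The difference in KO effect between stages was not called (adjusted p = 0.0831).

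Gpr183 encodes a receptor for oxysterols that guides B cells, T cells and dendritic cells through lymphoid tissue. It had 3 and 1 reads in WT meiotic, 2 and 1 in KO meiotic, 30 and 19 in WT post-meiotic libraries, with 69 and 53 in those of KO post-meiotic cells. The ratio of post-meiotic to meiotic reads was 12.9 (95% counting interval 4.72 to 49.1) in WT and 54.5 (18.2 to 268) in KO. Both rises were called (adjusted p = 8.13e-06 and 1.81e-09, edgeR), but Gpr183 too was tested only because of its post-meiotic reads, so that they are a description. These ratios rest on a handful of meiotic reads, and the fitted log2 change of 3.61 in WT became 4.45 without WT meiotic library 1, and that of 5.62 in KO became 6.39 and 4.90 without KO meiotic library 1 and 2. In post-meiotic cells Gpr183 was 2.43-fold higher in KO (log2 1.28 ± 0.29, adjusted p = 0.00168). That call was lost without WT post-meiotic library 2 (log2 1.05 with an adjusted p of 0.0325), without KO post-meiotic library 1 (log2 1.13, adjusted p = 0.0361) and with DESeq2 (log2 1.24, adjusted p = 0.0503). Fyco1 and Ubac2 run over Cxcr6 and Gpr183 on the opposite strand without shared exon bases.

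Genes that make or clear the ligands of these receptors were read from a list of 6. In KO post-meiotic cells 4 of the 6 passed the test, all as higher than in WT, against 12.4% of all tested genes. Csf1, a ligand of Csf1r, had 141 and 138 reads in WT and 346 and 230 in KO post-meiotic libraries (log2 1.00 ± 0.17, adjusted p = 0.000192), and Cxcl16 had 133 and 113 against 270 and 204 (log2 0.91 ± 0.17, adjusted p = 0.000433). Ch25h, an enzyme that makes the oxysterol precursor for Gpr183, had 8 and 3 against 31 and 32 reads (log2 2.46 ± 0.47, adjusted p = 0.000496). Ch25h passed the filter on low counts only through KO post-meiotic libraries. Its value is thus a description, and its place among the 4 follows in part from the filter. Hsd3b7, which breaks the oxysterol down, had 79 and 60 against 127 and 117 reads (log2 0.78 ± 0.19, adjusted p = 0.00388). In meiotic cells 1 of the 6 was higher and 1 lower at an unadjusted p under 0.05, and 0 passed in edgeR or in DESeq2. DESeq2 gave Ch25h no adjusted p in post-meiotic cells and called 0 of the 6 there, with 2 passing as higher.

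Emr1, an adhesion receptor that marks mouse macrophages and also eosinophils, had the highest mean level per length of the 10 genes in 3 of the groups. In WT post-meiotic cells Csf1r was within the spread of it. It had 152 and 148 reads in WT meiotic, 330 and 483 in KO meiotic, 401 and 341 in WT post-meiotic libraries, with 797 and 612 in those of KO post-meiotic cells. In CPM the groups did not overlap and stood in this order. The rise with stage was 2.59-fold in WT (log2 1.37 ± 0.12, adjusted p = 3.19e-09) and 2.30-fold in KO (log2 1.20 ± 0.10, adjusted p = 2.18e-09). Emr1 was 2.08-fold higher in KO meiotic cells (log2 1.06 ± 0.12, adjusted p = 2.68e-06) and 1.85-fold higher in KO post-meiotic cells (log2 0.89 ± 0.10, adjusted p = 3.40e-06). The meiotic call sits at the fold limit: without WT meiotic library 1 the change was 1.00 with an adjusted p of 0.000169 and no longer called, which left Lck as the only called gene.

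Csf1r, the receptor through which Csf1 and Il34 keep macrophages alive, had 86 and 71 reads in WT meiotic, 200 and 187 in KO meiotic, 659 and 497 in WT post-meiotic libraries, with 903 and 718 in those of KO post-meiotic cells. The rise was 7.70-fold in WT (log2 2.95 ± 0.22, adjusted p = 4.15e-07) and 5.46-fold in KO (log2 2.45 ± 0.19, adjusted p = 5.84e-07). The KO effect was 0.95 ± 0.25 on the log2 scale in meiotic cells (adjusted p = 0.0173) and 0.46 ± 0.17 in post-meiotic cells (adjusted p = 0.0553), and neither passed. The KO meiotic libraries were unequal, with 3.17 and 1.90 CPM, and without library 2 the meiotic effect was 1.31 with an adjusted p of 5.51e-05. With DESeq2 the meiotic effect passed at 0.96 (adjusted p = 9e-05), short of the fold limit. In post-meiotic cells the adjusted p was 0.00186 without KO meiotic library 1 and 0.00197 without KO meiotic library 2, with the change at 0.45. Hmgxb3 shares 871 exon bases with Csf1r on the opposite strand. Hmgxb3 had 3141 to 6363 reads and log2 changes with stage of -0.01 in WT and -0.22 in KO (adjusted p = 0.000837), and log2 KO effects of -0.00 in meiotic and -0.21 in post-meiotic cells (adjusted p = 0.00378). The part of such reads in the count of Csf1r was not tested.

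Cd68, a lysosomal membrane protein of phagocytes, had 18 and 20 reads in WT meiotic, 56 and 47 in KO meiotic, 88 and 67 in WT post-meiotic libraries, with 120 and 88 in those of KO post-meiotic cells. Its groups did not overlap in CPM, in the same order. It rose 4.25-fold with stage in WT (log2 2.09 ± 0.30, adjusted p = 3.96e-06) and 2.64-fold in KO (log2 1.40 ± 0.24, adjusted p = 3.64e-05), the latter at 0.95 and short of the fold limit without KO meiotic library 2. The KO effect was 1.08 ± 0.33 on the log2 scale in meiotic cells (adjusted p = 0.0181) and 0.39 ± 0.23 in post-meiotic cells (adjusted p = 0.187), and neither passed. The meiotic effect passed, at 1.51 with an adjusted p of 0.00274, without KO meiotic library 2, and with it left out 4 genes were called in that comparison, Cd68 and Csf1r besides Lck and Emr1.

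Cybb, the catalytic subunit of the NADPH oxidase with which phagocytes make superoxide, had 24 and 7 reads in WT meiotic, 32 and 36 in KO meiotic, 108 and 83 in WT post-meiotic libraries, with 234 and 195 in those of KO post-meiotic cells. The post-meiotic groups were apart from each other and from the meiotic groups, which overlapped. Cybb rose 6.44-fold with stage in WT (log2 2.69 ± 0.30, adjusted p = 1.71e-07) and 8.35-fold in KO (log2 3.06 ± 0.23, adjusted p = 6.87e-10). The change in WT was 3.73 without WT meiotic library 1 and 2.11 without WT meiotic library 2. In post-meiotic cells it was 2.19-fold higher in KO (log2 1.13 ± 0.20, adjusted p = 0.000251), which missed the limit at 0.0103 without KO post-meiotic library 1. In meiotic cells the KO effect of 0.76 ± 0.37 did not pass (adjusted p = 0.136). Cybb lies on the X chromosome, and the paper reports higher expression of the sex chromosomes as a whole in KO cells. It also reports that sex chromosome genes rise broadly from meiotic to post-meiotic WT cells. The part of either in the KO effect or the rise of Cybb was not tested.

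Other genes of the oxidase were read from a list of 7 partners of Cybb. In KO post-meiotic cells 3 passed the test as higher, against 12.4% of all tested genes: Rac1 (log2 0.53 ± 0.09, adjusted p = 0.000111), which is expressed in most cell types, Cyba, the small membrane subunit (log2 1.00 ± 0.20, adjusted p = 0.000789), and Ncf1, a cytosolic organizer (log2 1.06 ± 0.25, adjusted p = 0.0027). With stage, 5 of the 7 passed as higher in KO and 4 in WT, against 29.5% and 29.6% of all tested genes, and Rac1 passed as lower in both. The median KO effect of the 7 in post-meiotic cells was 0.63 on the log2 scale.

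Larger lists of leukocyte genes were read in the same fit. Some of their genes, such as Fcgr1 and Lcp2, passed the filter on low counts only through post-meiotic libraries. Counts with stage thus follow in part from the filter. Of 29 tested macrophage and monocyte genes, 20 passed as higher with stage in WT and 25 in KO, with 1 lower in each, against 29.6% and 29.5% of all tested genes passing as higher. In KO meiotic cells 4 passed as higher and 1 as lower than in WT, against 8.98% and 8.55% of all tested genes. The 4 were C1qc (log2 1.45 ± 0.26, adjusted p = 0.000577) and C1qa (log2 1.26 ± 0.25, adjusted p = 0.00081), chains of complement C1q, Ctss, a lysosomal protease (log2 1.58 ± 0.34, adjusted p = 0.0025), and Cd14, a receptor for bacterial lipopolysaccharide (log2 1.32 ± 0.32, adjusted p = 0.00425). The lower gene was Fcgr2b, an inhibitory receptor for immunoglobulin G (log2 -0.80 ± 0.11, adjusted p = 2.3e-05). In post-meiotic cells 7 passed, all as higher, against 12.4% of all tested genes. They were led by Cd14 (log2 1.59 ± 0.21, adjusted p = 9.47e-06) and C1qa (log2 0.96 ± 0.14, adjusted p = 5.36e-05). The summed level of the 30 genes in the table, 360 to 396 CPM in WT meiotic and 787 to 804 in WT post-meiotic libraries, was made mostly by Aif1, which had 17422 to 42852 reads in a library. Aif1 had log2 KO effects of -0.00 and 0.04.

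Of 22 pan-leukocyte genes, 15 passed as higher with stage in WT and 19 in KO, against 29.6% and 29.5% of all tested genes, while 2 passed as lower in WT, Inpp5d and Vav1, with log2 changes of -0.42 and -0.38, and 0 in KO. In post-meiotic cells 8 passed as higher in KO and 2 as lower, against 12.4% and 11.6% of all tested genes. Spn, the leukocyte sialoprotein (log2 1.72 ± 0.27, adjusted p = 0.000209), was among those higher, and Inpp5d, an inositol phosphatase (log2 -0.40 ± 0.08, adjusted p = 0.000449), and Cd37, a tetraspanin (log2 -0.74 ± 0.17, adjusted p = 0.0086), were those lower. In meiotic cells 2 of the 22 passed, Inpp5d and Cd48, both as lower, against 8.55% of all tested genes. A count of 2 in a list of this size does not set it apart from other genes. As higher, 0 passed in edgeR or in DESeq2, against 8.98% of all tested genes, while 3 were higher at an unadjusted p under 0.05. Inpp5d had 917 to 2068 reads in a library, more than Ptprc in each of them.

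Markers of other leukocyte classes were also read, against shares of all tested genes passing in KO post-meiotic cells of 12.4% as higher and 11.6% as lower. Of 14 tested genes of natural killer and innate-like lymphocytes, 1 passed as higher in KO meiotic cells, against 8.98% of all tested genes, which does not set the list apart. This was Il23r, the interleukin receptor of cells that make Il17a (20 and 29 reads against 2 and 4, log2 2.60 ± 0.54, adjusted p = 0.00119, with no adjusted p from DESeq2). In post-meiotic cells 3 of the 14 passed as higher and Gzma, a granule protease, as lower (log2 -2.25 ± 0.53, adjusted p = 0.00259). Gzma passed the filter on low counts only through WT post-meiotic libraries, so that its change is a description. Of 10 tested B cell genes, 3 passed as higher in KO post-meiotic cells, Cd72, Ebf1 and Cd79b, with log2 changes of 1.51, 0.83 and 2.09. Pax5 passed as lower, with a log2 change of -0.55. Cd79b had 6 and 5 reads in WT and 32 and 17 in KO post-meiotic libraries. It passed the filter on low counts only through those of KO, so that its change is a description. Among neutrophil and mast cell genes, 9 of 13 had too few reads to be tested, and S100a8, which neutrophils carry in bulk, had 0 reads in 6 of the 8 libraries and 1 read in each of the others. Of the 4 tested, Mpo, a peroxidase of neutrophil granules with 150 to 316 reads, passed as lower in KO meiotic (log2 -0.72 ± 0.14, adjusted p = 0.000784) and KO post-meiotic cells (log2 -0.73 ± 0.14, adjusted p = 0.000457), and Cxcr2, a chemokine receptor with 170 to 332 reads, as higher in KO post-meiotic cells (log2 0.49 ± 0.12, adjusted p = 0.00473). Csf3r and Cpa3 did not pass in either comparison of KO with WT. Of 9 tested genes of dendritic cells and MHC class II, 5 were called higher in KO post-meiotic cells, against 2.19% of all tested genes, among them Itgax (log2 1.99 ± 0.20, adjusted p = 6.35e-07), H2-Eb1 (log2 1.45 ± 0.11, adjusted p = 1.41e-08) and H2-Ab1 (log2 1.00 ± 0.08, adjusted p = 5.43e-08).

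Genes of cells other than leukocytes also differed between the groups. The shares of all tested genes that passed with stage were 29.6% (WT) and 29.5% (KO) as higher and 32.4% and 31.5% as lower, and in KO post-meiotic cells 12.4% passed as higher and 11.6% as lower than in WT. All 5 tested red blood cell genes passed as higher with stage in both genotypes, and 4 were called higher in KO post-meiotic cells, where Hbb-b1, a beta globin, had 1289 and 1047 reads against 373 and 325 in WT (log2 1.71 ± 0.10, adjusted p = 5.87e-10). Their near-identical copies make the globin counts uncertain. Hbb-b2, Hba-a1 and Hba-a2 passed the filter on low counts only through post-meiotic libraries, so that their rises with stage are a description. The summed level of the 7 red cell genes in the table was 2.37 to 2.61 CPM in WT meiotic, 2.46 to 2.92 in KO meiotic, 11.4 to 12.1 in WT post-meiotic and 31.1 to 32.9 in KO post-meiotic libraries, which is the order of the leukocyte genes except that the meiotic groups overlap. All 12 genes of peritubular cells and fibroblasts passed as higher with stage in both genotypes, and 5 passed as higher in KO post-meiotic cells. Their sums were 204 to 227 CPM in meiotic, 546 to 582 in WT post-meiotic and 687 to 766 in KO post-meiotic libraries. These sums were made mostly by Actg2, with 9954 to 26916 reads in a library. Actg2 had log2 KO effects of 0.08 in meiotic and 0.05 in post-meiotic cells, which did not pass. Leydig cell genes, which mark another cell of the space between tubules, went the other way, with 8 of 8 lower in post-meiotic cells in both genotypes and sums of 165 to 294 CPM in meiotic and 21.7 to 42.1 in post-meiotic libraries. Of 11 endothelial genes, 6 passed as higher with stage in WT and 5 in KO, with 0 as lower. Between the genotypes 3 of them passed in KO post-meiotic cells, all as lower. Of 9 tested Sertoli cell genes, 4 passed as higher there. Defining genes of each of these lists had reads in all groups, and their part in the results on the leukocyte genes was not tested.

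**Figure D4:**
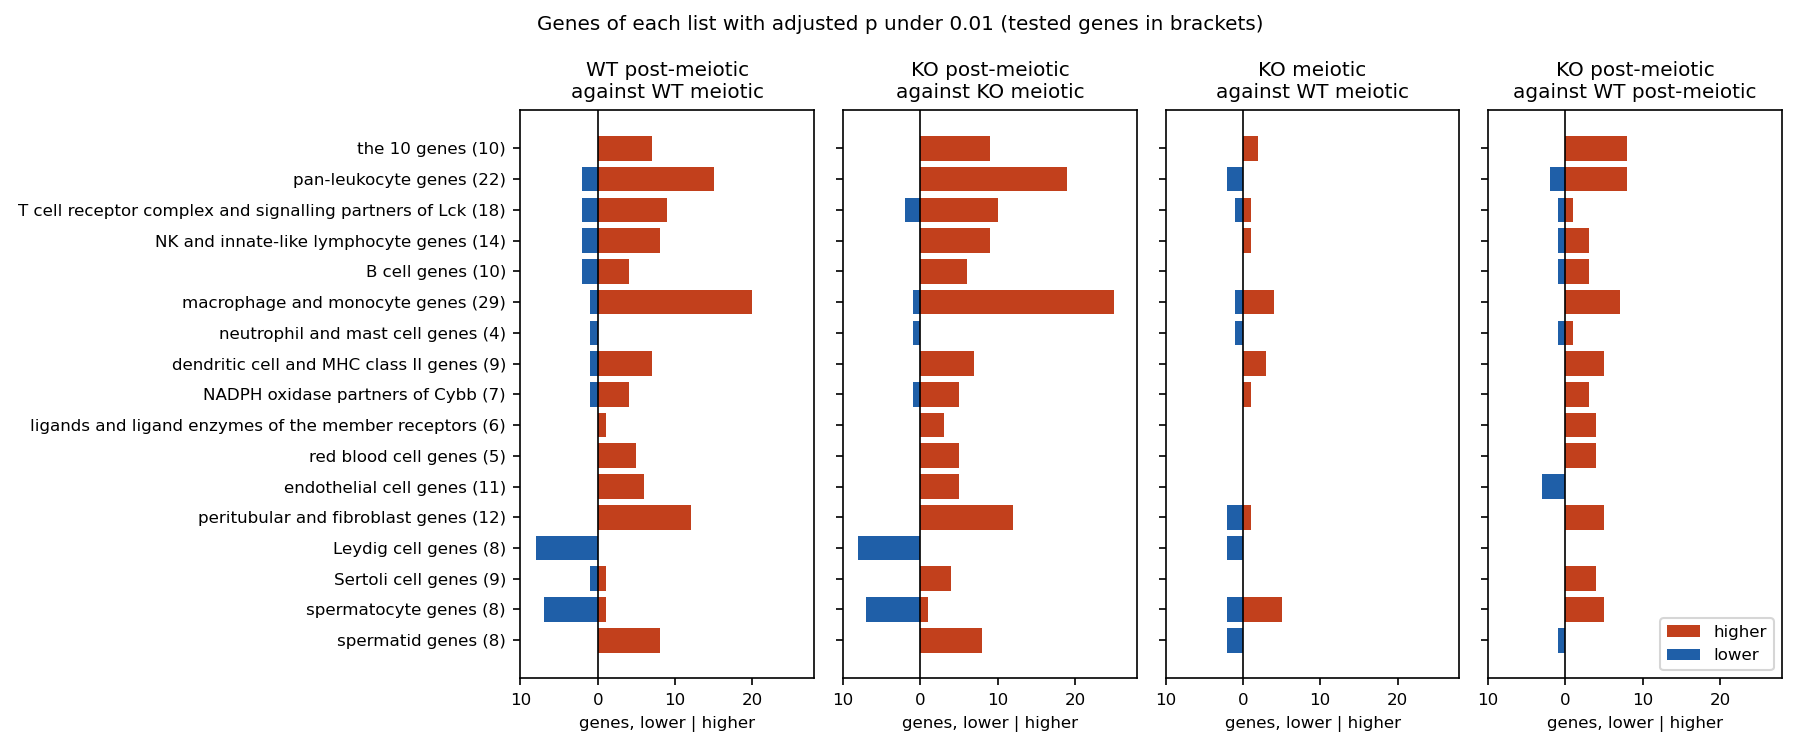
Number of genes of each list with an adjusted p under 0.01 in the 4 comparisons between groups, higher to the right and lower to the left of 0, with the number of tested genes in brackets. Macrophage, red cell and peritubular genes point to the right in both stage comparisons, and Leydig genes to the left with 8 of 8.

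Over the 8 libraries, log2 CPM of the 10 genes split in the same way as the comparisons. Pearson correlations of Lck with the other 9 genes were -0.014 to 0.456 with a median of 0.196, those of Cd52 with the other 8 were 0.653 to 0.968 with a median of 0.798, and the 28 pairs of the remaining genes had 0.733 to 0.982 with a median of 0.922. The points share libraries and groups, and the values are a description. Among tested genes with at least 50 reads on average, those most like Ptprc were Gm11749, Gm12034, Cd3d, 9230115E21Rik and 1700054M17Rik, with correlations of 0.994 to 0.990 over 8 libraries. Those most like Lck were Acap3, Olfr874, Cln3, Tug1 and Nmnat3, with 0.996 to 0.980. Within groups, KO post-meiotic library 1 was above library 2 in all 10 genes, WT post-meiotic library 1 in 7, KO meiotic library 1 in 8 and WT meiotic library 1 in 4.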

How the data were processed

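RNA-seq gene counts of 8 libraries were used, 2 for each of 4 groups of genotype and stage, grouped by the sample titles. Per the labels and methods, the authors made stranded total RNA libraries, used TopHat2 2.0.14 with Bowtie2 2.1.0 and the mm9 genome, kept unique alignments and counted them per Ensembl gene with HTSeq 0.6.1. The deposited values used are these raw counts, with no normalization. The strand setting of the counting is not given in the sources used here. The table also holds the authors' fold changes and p-values from DESeq2 1.14.1, which were not used, nor were the tables of piRNA clusters and repeats.

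Counts were filtered (filterByExpr), given TMM factors and fitted in 1 model of 8 libraries with the robust quasi-likelihood test of edgeR 4.0.16 in R 4.3.3, after a test on simulated data. The Benjamini-Hochberg adjustment covered 20412 genes. A call took an adjusted p under 0.01 together with a log2 change beyond 1, the limits of the study. CPM are per effective library size, RPKM per exon length of the mm9 annotation. Counting intervals are exact at 95%. Alternatives were other scalings, DESeq2 1.42.0, no filter, no fold limit, only the libraries compared, a replicate block and each library left out. The 10 genes and the 16 context lists, 201 of whose 207 entries matched a gene, were chosen with earlier results of these data known. Of each list, up to 4 genes per comparison and direction with the smallest adjusted p under 0.01 could be named, besides genes said to be chosen after their values were seen. Gene position on mm9 was the same in the table and the annotation for all 10 genes.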

Additional observations from a re-analysis of the deposited data

Results flagged for a closer look

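Cd52 differed in its KO effect between the stages by a test of the difference itself: the effect was 2.09 ± 0.40 (SE) larger on the log2 scale in post-meiotic than in meiotic cells (adjusted p = 0.00394, edgeR). Both KO post-meiotic libraries were above the other 6 libraries, at 2.34 and 1.41 CPM. The spread between these 2 libraries was the widest of the groups of Cd52, and the adjusted p was 0.0334 without the higher of them.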

How the results depend on the processing

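Of 679 values of the 10 genes under alternative settings, in 50 results, 661 kept their direction and whether they were called, 11 lost a call, 5 gained one and 2 changed sign. Among the 661, 11 crossed the adjusted p limit alone, in genes short of the fold limit. With each library left out in turn, the number of genes called was 7 in each case for the stage comparison in WT, 8 to 9 for that in KO, 1 to 4 for the KO effect in meiotic cells, 4 to 7 for that in post-meiotic cells and 0 to 1 for the difference between stages. The changes of sign were in values that were never called: the KO effect of Gpr183 in meiotic cells ranged from -1.51 to 0.11 and the difference between stages for Cybb from -0.68 to 0.94. With DESeq2 the counts were 7, 9, 2 and 4 for the first 4 comparisons. It gave 7 values no adjusted p, among them those of Cd163l1 in post-meiotic cells and of Cd52 for the difference between stages, which are not counted as lost. With no fold limit the post-meiotic KO effect had 8 genes. Over the 7 genes with at least 50 reads on average, an alternative chosen after seeing the data, the counts were 5, 6, 2, 3 and 1. The cause of these changes was not tested, beyond the fewer libraries in fits that left a library out.

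With the replicate number as a block the counts were 7, 9, 3, 6 and 1, the added gene being Cd68 in meiotic cells (log2 1.10, adjusted p = 0.00709), which also passed without the filter on low counts (log2 1.10, adjusted p = 0.00218). Whether libraries of the same number share a mouse is not given. Their deviations correlated at -0.0616 to 0.109, with 2 pairs in a comparison, the highest values being those of the stages within WT (0.109) and within KO (0.0975). Depth limits Cxcr6, Cd163l1 and Gpr183, which had 0 to 3 reads in a meiotic library.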
